A study of Homo sapiens with 6 samples.

Results

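This report describes 34 human genes that answer to low oxygen or sense it, in HCC827 cells, a lung adenocarcinoma line with mutant EGFR, grown as 3D tumoroids or as a 2D monolayer. The genes were chosen by name from a list of hypoxia response genes and oxygen sensors, and all 34 were found, each in 1 row, among the 60504 genes of the deposited table. The 3D group holds 3 libraries of cells embedded in droplets of growth factor reduced Matrigel, a mouse basement membrane gel, seeded at 50000 cells and kept for 12 to 16 days or until nearly confluent. The 2D group holds 3 libraries of cells from uncoated flasks, seeded at 1000000 cells and kept for 4 to 6 days between passages. Both groups were grown in the same serum-containing medium in an incubator with 5% CO2, and the protocols used here give no oxygen setting or oxygen measurement. Geometry, time in culture, seeding density and contact with the gel differed together, so their effects cannot be told apart. Both groups are the same established line and no gene was altered. Poly(A) RNA was sequenced, and the values are TPM, each gene's share of a library's transcripts, corrected for transcript length and set to the same total in every library.

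Cells measure oxygen through enzymes that need it as a substrate. Prolyl hydroxylases of the EGLN family hydroxylate the alpha subunits of hypoxia-inducible factor (HIF), the protein VHL then marks them for destruction, and the asparagine hydroxylase HIF1AN blocks their contact with coactivators. When oxygen falls, the alpha subunits persist, pair with ARNT and switch on genes for glycolysis, angiogenesis, pH control, mitochondrial turnover and collagen maturation. Much of this control acts on HIF proteins, which RNA does not measure. In bulk RNA, a change in the fraction of cells that use a gene and a change in RNA per cell cannot be told apart.

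The libraries of both cultures carried epithelial RNA. The 7 epithelial markers examined summed to 4525 to 8343 TPM in 3D libraries and 7285 to 9683 TPM in 2D libraries, whereas 4 endothelial markers summed to 1.51 to 3.98 TPM in 3D and 0.68 to 1.46 TPM in 2D. The 6 fibroblast markers, of which only COL1A1 passed the filter described below, summed to 6.99 to 12.1 TPM in 3D and 2.10 to 2.96 TPM in 2D. The 6 leukocyte markers summed to 50.0 to 91.7 TPM in 3D and 71.5 to 99.3 TPM in 2D, most of it the lysosomal gene CD68. PTPRC, which marks all leukocytes, had 0.03 to 0.25 TPM in 3D and 0 TPM in every 2D library. COL3A1 was at 0 in every library and COL1A2 at most 0.01 TPM. Some other markers lay higher in every 3D library than in any 2D library. COL1A1 was called higher (log2 fold change 1.33, limma adjusted p = 0.017). It had 5.26 to 10.65 TPM in 3D and 2.02 to 2.50 TPM in 2D. LUM had 0.80 to 1.49 TPM in 3D and 0.08 to 0.36 TPM in 2D. KDR had 0.64 to 2.5 TPM in 3D and 0.01 to 0.08 TPM in 2D. CSF1R had 1.06 to 1.65 TPM in 3D and 0.28 to 0.88 TPM in 2D. CDH5 had 0.42 to 1.02 TPM in 3D and 0.06 to 0.21 TPM in 2D. VWF had 0.15 to 0.36 TPM in 3D and 0.02 to 0.11 TPM in 2D. No leukocyte, endothelial or fibroblast marker lay lower in every 3D library. Among the 7 epithelial markers, KRT7 and KRT18 did, as did 9.40% of all tested genes. KRT7 had 525 to 869 TPM in 3D and 1165 to 1222 TPM in 2D. It was called lower (log2 fold change -0.81, limma adjusted p = 0.036), a call kept in 11 of 16 alternatives. KRT18 had 813 to 1515 TPM in 3D and 1614 to 1977 TPM in 2D and did not pass (adjusted p = 0.0794). The median log2 fold change of the 7 was -0.51, with 2 of them positive, against 0.12 over all tested genes. The part of such markers in any result was not tested. The third library of each group stood apart on the second principal component, which held 19.5% of the variance. The score of 2D replicate 3 was 42.1, against -25.6 and -22.5 for the other 2D libraries, and that of 3D replicate 3 was 18.6, against -8.64 and -3.99 for the other 3D libraries. On the first component, which held 52.7%, 3D replicate 3 scored 22.65, against 42.9 and 48.6 for the other 3D libraries. The 2D libraries scored -34.2, -40.8 and -39.2 there, so 3D replicate 3 was the 3D library nearest to them. Results for the hypoxia genes are therefore also given without the libraries numbered 3.

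Of the 34 genes, 31 averaged 1 TPM or more across the 6 libraries and were tested, together with 15042 genes in all. Among them 13 rose in 3D, 1 fell, and 17 did not pass the test (limma on log2(TPM + 1), Benjamini-Hochberg adjusted p under 0.05 over all tested genes). Over all tested genes, 10.2% were called higher and 2.12% lower by this rule. All libraries of 3D lay above all libraries of 2D in 16 of the 31 and below them in 3, against 27.3% and 9.40% of all tested genes. The median log2 fold change of the 31 was 0.68, where that of all tested genes was 0.12. With libraries rescaled by median ratios, all tested genes had a median of -0.01 and the 31 genes 0.53, with 9 called higher (6.46% of all tested genes) and 2 called lower (4.07%). The genes that rose were EGLN3, CITED2, BHLHE40, MXI1, NDUFA4L2, INSIG2, ERO1A, NDRG1, P4HA1, P4HA2, ANGPTL4, KISS1R and ANKRD37, and the gene that fell was HIF1A. The labels do not say whether replicates were separate cultures, so p-values describe only how far these samples spread, and that spread may be technical.

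**Figure D1:**
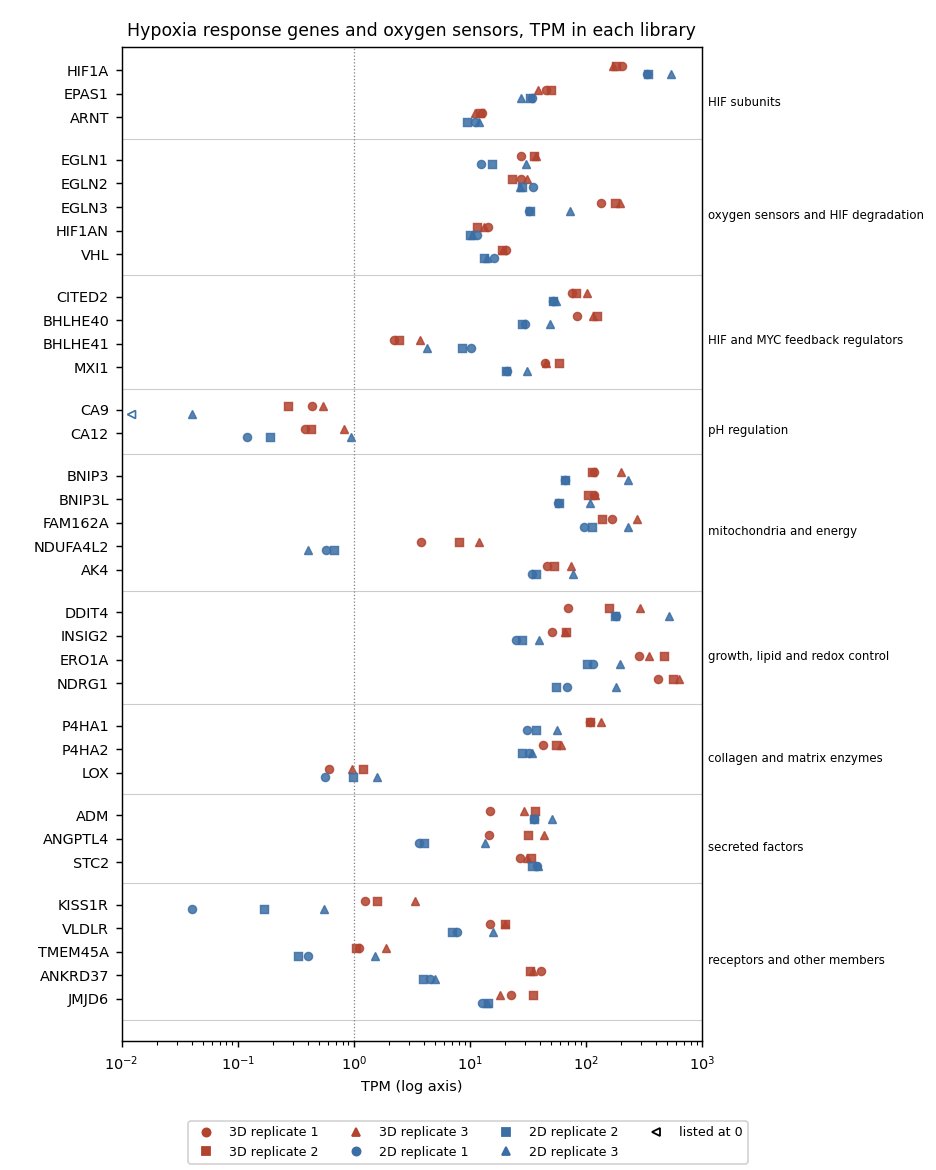
TPM on a log axis for each of the 34 genes (rows, grouped by role) in the 3 3D libraries (red) and the 3 2D libraries (blue); marker shapes give the replicate, open triangles a value listed at 0, and the dotted line 1 TPM. HIF1A lies lower in every 3D library than in any 2D library, while ANKRD37, NDRG1, EGLN3 and P4HA1 lie higher, and 2D replicate 3 lies nearest to the 3D libraries in many rows.

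**Figure D2:**
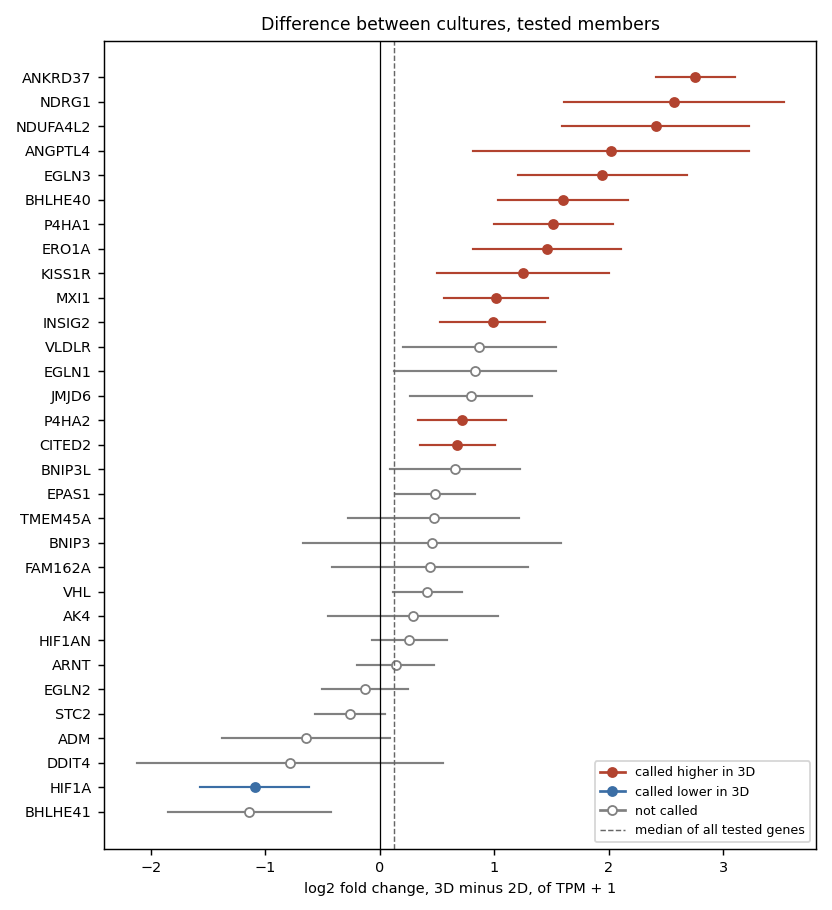
Log2 fold change of TPM + 1, 3D minus 2D, with its 95% confidence interval (lines) for the 31 tested genes, in order of size. Filled red points are the 13 genes called higher in 3D, the filled blue point is HIF1A, open points were not called, and the dashed line is the median of all tested genes, 0.12.

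ANKRD37, an ankyrin repeat protein whose gene is a direct HIF target, had the largest log2 fold change of the 31 genes on the log2(TPM + 1) scale with all libraries; that order changed with other settings, NDUFA4L2 being larger with a pseudocount of 0.1 and NDRG1 without 2D replicate 3. It had 41.0, 32.9 and 35.0 TPM in the 3D libraries, against 4.56, 3.96 and 5.04 TPM in the 2D libraries. Every 3D library stood well above every 2D library, and 2D replicate 3 was not set apart. The log2 fold change was 2.76 (SE 0.15, 95% interval 2.41 to 3.10, limma adjusted p = 0.000157), and the call held in each of the 16 alternative settings, with adjusted p up to 0.00271. In GENCODE 29 its exons share 909 bases with exons of UFSP2 on the opposite strand, which averaged 23.5 TPM in 3D and 18.0 TPM in 2D. The strand setting of the authors' counting is not given in the sources used here.

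HIF binds DNA at a short core, ACGTG or GCGTG. The stretches just before the transcription start are shown for 6 of the genes. They let that core be compared between genes that rose and a gene that was not called. Each is the 250 bases before the RefSeq start on build GRCh38.p14, on the gene's own strand, with capitals marking every ACGTG or GCGTG on either strand (the reverse-strand core reads CACGT or CACGC, and the E-box CACGTG, which holds the core on both strands, is counted once). The first 5 rose in 3D and the last, BNIP3, was not called with all libraries. Without 2D replicate 3, BNIP3 was called higher too (limma adjusted p = 0.0365).
ANKRD37, chr4:185396591-185396840, plus strand: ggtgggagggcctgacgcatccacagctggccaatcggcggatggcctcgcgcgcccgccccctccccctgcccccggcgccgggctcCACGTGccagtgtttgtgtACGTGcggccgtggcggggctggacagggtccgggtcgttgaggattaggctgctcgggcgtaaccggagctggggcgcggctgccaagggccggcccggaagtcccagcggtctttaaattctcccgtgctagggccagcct
P4HA1, chr10:73096867-73097116, minus strand: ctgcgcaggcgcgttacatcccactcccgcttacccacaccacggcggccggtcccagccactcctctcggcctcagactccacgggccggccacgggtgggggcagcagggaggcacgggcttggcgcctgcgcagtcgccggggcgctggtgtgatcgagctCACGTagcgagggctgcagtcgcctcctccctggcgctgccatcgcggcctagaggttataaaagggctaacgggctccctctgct
BHLHE40, chr3:4979187-4979436, plus strand: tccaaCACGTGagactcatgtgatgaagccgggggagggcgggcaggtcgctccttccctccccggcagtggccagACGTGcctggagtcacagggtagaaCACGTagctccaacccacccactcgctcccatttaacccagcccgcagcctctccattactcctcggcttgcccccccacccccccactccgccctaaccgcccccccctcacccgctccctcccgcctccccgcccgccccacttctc
ERO1A, chr14:52695559-52695808, minus strand: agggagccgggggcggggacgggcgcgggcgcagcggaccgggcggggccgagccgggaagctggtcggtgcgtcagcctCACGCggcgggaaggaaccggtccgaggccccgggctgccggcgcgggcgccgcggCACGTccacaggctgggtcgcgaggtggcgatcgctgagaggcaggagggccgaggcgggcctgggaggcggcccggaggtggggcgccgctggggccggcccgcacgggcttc
EGLN3, chr14:33951075-33951324, minus strand: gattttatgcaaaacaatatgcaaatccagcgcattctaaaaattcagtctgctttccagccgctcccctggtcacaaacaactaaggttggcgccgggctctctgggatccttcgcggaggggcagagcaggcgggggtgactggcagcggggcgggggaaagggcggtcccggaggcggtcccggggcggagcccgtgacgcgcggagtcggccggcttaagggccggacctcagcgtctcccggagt
BNIP3, chr10:131981924-131982173, minus strand: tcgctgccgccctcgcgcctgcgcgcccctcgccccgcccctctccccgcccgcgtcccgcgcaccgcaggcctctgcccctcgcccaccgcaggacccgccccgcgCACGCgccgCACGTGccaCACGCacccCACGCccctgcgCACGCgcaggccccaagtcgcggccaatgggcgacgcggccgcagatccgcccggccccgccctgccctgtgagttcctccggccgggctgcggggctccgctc

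The stretches differed in how many cores they held. ANKRD37 held 2, at positions -162 and -143 from the start, and the first of them lay in an E-box. BNIP3 held 5 within a short run, at positions -143, -134, -125, -116 and -104. EGLN3 held none, also in the 50 bases after the start. Promoter windows of 300 bases (250 before and 50 after the start) were matched for 28 of the 34 genes, and 23 of them (82.1%) held the core in at least 1 window, against 69.9% of the 9795 tested genes with a window and 52.4% of all 27305 genes with a window. The 28 genes include CA9, CA12 and LOX, which were not tested and all held the core. The share over tested genes is thus not over a like set. Of the genes called higher, 8 of the 10 with a window held the core, and of those tested and not called, 11 of 14. The genes with no window were NDUFA4L2, KISS1R, VHL, JMJD6, NDRG1 and BNIP3L. A match describes these letters only and is not a bound site.

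Of the 3 HIF subunits, 1 fell in 3D and the others did not pass the test. The share called lower among all tested genes was 2.12%. HIF1A, the alpha subunit present in most cell types, had 206, 180.5 and 171 TPM in the 3D libraries, against 335, 342 and 541 TPM in the 2D libraries. The 3D libraries lay close together and below every 2D library, and 2D replicate 3 was the highest of all. HIF1A fell in 3D with a log2 fold change of -1.09 (SE 0.20, limma adjusted p = 0.0173), a call lost without 3D replicate 1 (adjusted p = 0.0626), without 3D replicate 2 (adjusted p = 0.0751) and without the filter on low values (adjusted p = 0.0562). Without 2D replicate 3 it still passed, with a log2 fold change of -0.87 (adjusted p = 0.00983). EPAS1, which encodes the alpha subunit HIF-2 alpha, had 44.99, 50.2 and 38.7 TPM in 3D, against 34.3, 33.0 and 27.8 TPM in 2D. Its groups did not overlap, but it did not pass the test (log2 fold change 0.48, 95% interval 0.13 to 0.83, adjusted p = 0.0758), except without both libraries numbered 3 (adjusted p = 0.0431).

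Within a library, EPAS1 RNA was 21.9%, 27.8% and 22.7% of HIF1A RNA in 3D, against 10.2%, 9.64% and 5.14% in 2D. HIF1A was the more abundant subunit in every library, and the ratio was higher in every 3D library than in any 2D library. The log2 ratio averaged -2.06 ± 0.188 in 3D and -3.65 ± 0.551 in 2D (SD, n = 3 each). The difference was 1.59, with a two-sided exact permutation p of 0.1, the smallest that 3 libraries against 3 allow. Neither gene overlapped between cultures, and they differed in opposite directions. The separation of the ratio was thus fixed by those values and is no further evidence. ARNT, the shared beta subunit, had 12.6, 12.3 and 11.1 TPM in 3D, against 11.2, 9.38 and 12.0 TPM in 2D. Those ranges overlap, and the log2 fold change was 0.14 (95% interval -0.20 to 0.48), with its sign turned under median-ratio scaling (-0.0035) and quantile normalization (-0.06).

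Transcripts from the other strand of the HIF1A locus were also listed. HIF1A spans chr14:61695513-61748259 on the plus strand in GENCODE 29 (GRCh38), and the long noncoding RNA gene HIF1A-AS2 spans chr14:61715558-61751097 on the minus strand, with 0 exonic bases in common. HIF1A-AS2 had 3.89, 5.74 and 7.57 TPM in 3D, against 0.13, 0.33 and 0 TPM in 2D. It was low but clear in every 3D library and near 0 in every 2D library, with a log2 fold change of 2.52 (SE 0.27, limma adjusted p = 0.00241) and a call kept in all 15 alternatives that tested it. HIF1A-AS1, which shares 117 exonic bases with HIF1A, averaged 0.173 TPM in 3D and 0.14 TPM in 2D. AL137129.1, a gene of the same strand that shares 148 exonic bases with HIF1A, averaged 10.7 TPM in 3D and 5.75 TPM in 2D, and the split of reads between both genes is uncertain.

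**Figure D3:**
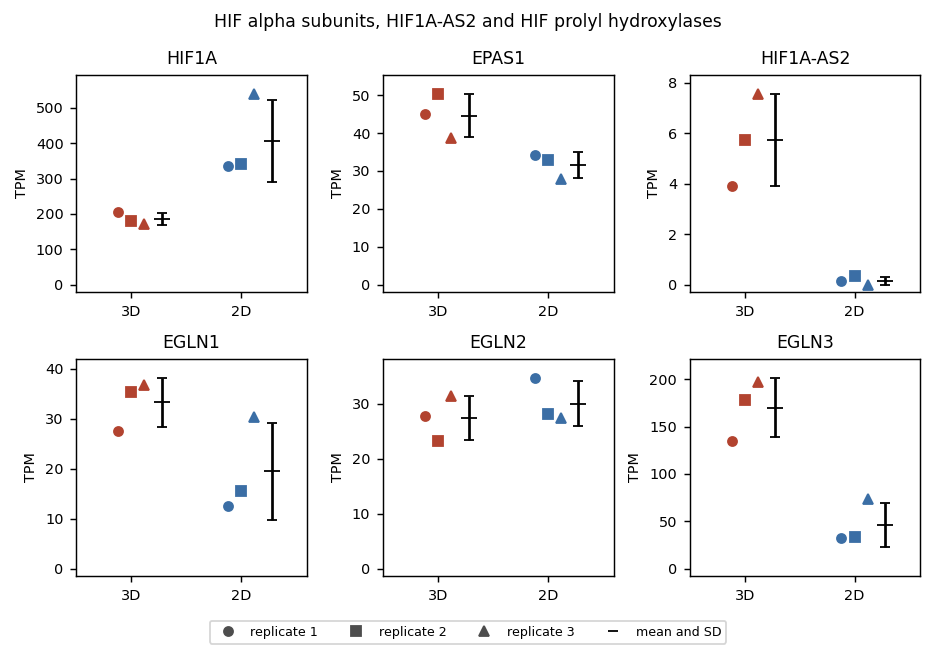
TPM of HIF1A, EPAS1, HIF1A-AS2, EGLN1, EGLN2 and EGLN3 in each 3D library (red, left) and 2D library (blue, right), with marker shapes for replicates and bars for the mean and SD of 3 libraries. HIF1A is lower and HIF1A-AS2 and EGLN3 are higher in every 3D library than in any 2D library, while 2D replicate 3 of EGLN1, at 30.4 TPM, lies inside the 3D range.

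Of 5 genes of oxygen sensing and HIF degradation, 1 rose, where 10.2% of all tested genes were called higher. EGLN3, a HIF prolyl hydroxylase that HIF itself induces, had 135, 178 and 197 TPM in 3D, against 32.4, 33.1 and 73.4 TPM in 2D. All 3D libraries were higher, and 2D replicate 3 had more than its group partners. The log2 fold change was 1.94 (SE 0.32, limma adjusted p = 0.0119), and the call was lost without 3D replicate 2 (adjusted p = 0.0594) or 2D replicate 2 (adjusted p = 0.0519). EGLN1, the main HIF prolyl hydroxylase in most cells and also a HIF target, had 27.6, 35.4 and 36.8 TPM in 3D, against 12.5, 15.5 and 30.4 TPM in 2D. Its groups overlapped through 2D replicate 3, and it did not pass (log2 fold change 0.83, adjusted p = 0.111), whereas it passed without that library (log2 fold change 1.19, adjusted p = 0.0097).

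EGLN3 RNA exceeded EGLN1 RNA in every library. The EGLN3 to EGLN1 ratio was 4.90, 5.03 and 5.35 in 3D, against 2.60, 2.14 and 2.41 in 2D. The log2 ratio averaged 2.35 ± 0.0647 in 3D and 1.25 ± 0.141 in 2D (SD, n = 3 each), a difference of 1.099 with an exact permutation p of 0.1, again the smallest possible. In this ratio 2D replicate 3 lay between the other 2D libraries. EGLN2, a prolyl hydroxylase that hypoxia is not known to induce, had 27.7, 23.3 and 31.3 TPM in 3D, against 34.7, 28.02 and 27.3 TPM in 2D (log2 fold change -0.13, 95% interval -0.50 to 0.25). VHL averaged 19.5 ± 0.782 TPM in 3D and 14.4 ± 1.44 TPM in 2D without overlap (SD, n = 3 each) but did not pass (limma adjusted p = 0.0778). HIF1AN averaged 13.03 ± 1.44 TPM in 3D and 10.7 ± 0.695 TPM in 2D, with overlapping groups. Its exons share 325 bases with the far more abundant NDUFB8 on the opposite strand, at 130.4 TPM in 3D and 164 TPM in 2D.

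Of 4 regulators that restrain HIF or MYC, 3 rose, where 10.2% of all tested genes were called higher. BHLHE40, a transcriptional repressor that HIF induces, had 83.6, 126 and 116 TPM in 3D, against 30.1, 28.1 and 48.7 TPM in 2D. The groups were well apart, with 2D replicate 3 the highest of 2D (log2 fold change 1.6, SE 0.24, limma adjusted p = 0.0098), and the call was lost only without 3D replicate 2, at an adjusted p of 0.0505. Its close relative BHLHE41 had lower values in 3D, with 2.22, 2.45 and 3.69 TPM in 3D, against 10.2, 8.50 and 4.24 TPM in 2D. Those groups did not overlap, and BHLHE41 lay just outside the threshold (log2 fold change -1.14, adjusted p = 0.0509). It passed without 2D replicate 3 (adjusted p = 0.0104), without 3D replicate 3 (adjusted p = 0.0496), under median-ratio scaling (adjusted p = 0.0386) and quantile normalization (adjusted p = 0.0331), with the robust option (adjusted p = 0.0488) and with a pseudocount of 0.1 (adjusted p = 0.0478).

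CITED2, which competes with HIF for the coactivators EP300 and CREBBP, had 75.8, 82.2 and 101 TPM in 3D, against 52.3, 51.8 and 55.6 TPM in 2D. MXI1, an antagonist of MYC, had 44.7, 58.1 and 45.1 TPM in 3D, against 20.8, 20.5 and 31.0 TPM in 2D. Both rose with no overlap, where 27.3% of all tested genes lay higher in every 3D library. The log2 fold change was 0.68 for CITED2 (SE 0.14, limma adjusted p = 0.0249) and 1.02 for MXI1 (SE 0.20, adjusted p = 0.019). Both calls were lost without the filter on low values and without 3D replicate 1, 3D replicate 2, 2D replicate 1 or 2D replicate 2, at adjusted p between 0.0647 and 0.095 for CITED2 and between 0.0632 and 0.08 for MXI1 over these 4 libraries. CITED2 also lost its call under median-ratio scaling (adjusted p = 0.0551).

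Of 5 mitochondrial and energy genes, 1 rose and 4 had overlapping groups, where 10.2% of all tested genes were called higher. NDUFA4L2, a mitochondrial protein that HIF-1 induces and that lowers respiratory activity in hypoxic cells, had 3.77, 8.04 and 11.9 TPM in 3D, against 0.58, 0.67 and 0.40 TPM in 2D. It was low in every 2D library, replicate 3 included, and rose in 3D with a log2 fold change of 2.41 (SE 0.35, limma adjusted p = 0.00835), a call kept in all 15 alternatives that tested it. Its exons share 33 bases with SHMT2 on the opposite strand, which averaged 149.5 TPM in 3D and 188 TPM in 2D. BNIP3, a mitophagy receptor and a standard HIF target, had 117, 114 and 200.4 TPM in 3D, against 66.2, 66.5 and 231 TPM in 2D. The highest of all 6 values was thus that of 2D replicate 3, and BNIP3 did not pass (log2 fold change 0.46, 95% interval -0.67 to 1.58, adjusted p = 0.55), whereas without that library it passed with a log2 fold change of 1.05 (adjusted p = 0.0365). The table also lists 39 BNIP3 pseudogenes, which summed to 6.12 to 10.3 TPM in 3D and 5.34 to 9.29 TPM in 2D.

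BNIP3L, a related mitophagy receptor whose exons share 330 bases with those of PNMA2 (17.1 TPM in 3D and 8.47 TPM in 2D, opposite strand), had 116, 105 and 119 TPM in 3D, against 57.1, 58.5 and 109 TPM in 2D. Its groups overlapped only through 2D replicate 3, without which it passed (log2 fold change 0.96, limma adjusted p = 0.00615). With all libraries the log2 fold change was 0.66 (adjusted p = 0.117). FAM162A, a mitochondrial protein linked to cell death in hypoxia, had 169, 137 and 273 TPM in 3D, against 96.8, 113 and 232 TPM in 2D. AK4, a mitochondrial adenylate kinase, had 46.4, 53.1 and 73.7 TPM in 3D, against 34.4, 36.9 and 77.4 TPM in 2D. In both genes replicate 3 was the highest library of each culture, and neither passed the test, with 95% intervals of -0.42 to 1.29 for FAM162A and -0.46 to 1.03 for AK4. FAM162A passed without both libraries numbered 3 (adjusted p = 0.0421). The retrocopy AK4P1 had 0.44, 0.39 and 1.06 TPM in 3D, against 1.26, 1.27 and 5.58 TPM in 2D, and how reads were divided between it and AK4 is uncertain.

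Of 4 genes of growth, lipid and redox control, 3 rose, where 10.2% of all tested genes were called higher. NDRG1, a stress gene strongly induced by hypoxia, was the most abundant of the 34 in 3D, with 418, 567 and 629 TPM, against 68.5, 55.6 and 181 TPM in 2D. Its log2 fold change was 2.57 (SE 0.41, limma adjusted p = 0.0113), the call being lost only without 3D replicate 2 (adjusted p = 0.0576). ERO1A, the oxidase that renews disulfide-forming capacity in the endoplasmic reticulum, had 288, 470.0 and 351 TPM in 3D, against 114, 101 and 195 TPM in 2D. INSIG2, which holds back cholesterol synthesis, had 51.0, 66.9 and 65.9 TPM in 3D, against 24.9, 28.3 and 39.1 TPM in 2D. These 3 genes had no overlap between cultures, where 27.3% of all tested genes lay higher in every 3D library. In each of the 3, 2D replicate 3 was the highest 2D library, as in 36.3% of all tested genes. The log2 fold change was 1.46 for ERO1A (SE 0.28, adjusted p = 0.0184) and 0.99 for INSIG2 (SE 0.20, adjusted p = 0.0214).

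Both calls were lost in some fits with 1 library left out. Those fits also called fewer of all tested genes higher, 2.44% to 4.84% against 10.2% with all libraries. Over all settings the log2 fold change was 1.27 to 1.76 for ERO1A and 0.84 to 1.17 for INSIG2. ERO1A was no longer called without 3D replicate 2 (limma adjusted p = 0.076), 2D replicate 1 (adjusted p = 0.0625) or 2D replicate 2 (adjusted p = 0.072), and INSIG2 without 3D replicate 1 (adjusted p = 0.0538), 3D replicate 2 (adjusted p = 0.0924), 2D replicate 1 (adjusted p = 0.0648) or 2D replicate 2 (adjusted p = 0.0862). Neither passed without the filter on low values, with adjusted p of 0.0614 for ERO1A and 0.0601 for INSIG2. DDIT4, an inhibitor of the growth kinase complex mTORC1 that hypoxia and other stresses induce, had 70.4, 159 and 292 TPM in 3D, against 182, 180 and 522 TPM in 2D. DDIT4 varied widely within both cultures, with a coefficient of variation of 64.1% in 3D and 66.9% in 2D, and replicate 3 was the highest of each. The log2 fold change was -0.79 (95% interval -2.13 to 0.55, adjusted p = 0.382).

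Of the 3 collagen and matrix enzymes among the 34 genes, the 2 that were tested both rose. The share called higher among all tested genes was 10.2%. P4HA1, a catalytic subunit of collagen prolyl 4-hydroxylase, had 109.4, 109.3 and 135 TPM in 3D, against 31.0, 37.3 and 56.7 TPM in 2D. Its groups were far apart, and it rose with a log2 fold change of 1.52 (SE 0.22, limma adjusted p = 0.00877) under all 16 alternatives, with adjusted p up to 0.0464. P4HA2, the other widely used catalytic subunit, had 42.7, 55.0 and 60.6 TPM in 3D, against 32.2, 28.03 and 34.2 TPM in 2D. It rose less, with a log2 fold change of 0.72 (SE 0.16, adjusted p = 0.0322), and lost its call without any single library other than 2D replicate 3 (adjusted p from 0.0517 to 0.117), under median-ratio scaling (adjusted p = 0.0575) and without the filter (adjusted p = 0.0703). LOX, which crosslinks collagen, fell under the filter with 0.61, 1.2 and 0.97 TPM in 3D, against 0.57, 0.99 and 1.58 TPM in 2D, overlapping ranges. Its exons share 138 bases with SRFBP1 on the opposite strand, at 11.6 TPM in 3D and 9.51 TPM in 2D.

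Of the 3 secreted factors, 1 rose, where 10.2% of all tested genes were called higher. ANGPTL4, an inhibitor of lipoprotein lipase, had 14.5, 31.6 and 43.2 TPM in 3D, against 3.61, 4.04 and 13.5 TPM in 2D. The highest 2D library, replicate 3, came close to the lowest 3D library, and the log2 fold change of 2.02 (SE 0.52, limma adjusted p = 0.0445) was called only narrowly. The call was lost without 3D replicate 1 (adjusted p = 0.0575), 3D replicate 2 (adjusted p = 0.151), 3D replicate 3 (adjusted p = 0.0896), 2D replicate 1 (adjusted p = 0.119) or 2D replicate 2 (adjusted p = 0.146), without the trend, without the filter, under the robust option and under both other scalings (adjusted p from 0.0557 to 0.124). ADM, the vasodilator peptide adrenomedullin and a classical HIF target, had 15.0, 36.3 and 29.4 TPM in 3D, against 35.6, 35.5 and 50.8 TPM in 2D. STC2, a secreted glycoprotein, had 27.2, 33.5 and 31.3 TPM in 3D, against 37.9, 34.5 and 38.4 TPM in 2D. ADM overlapped between cultures through 3D replicate 2, STC2 lay lower in every 3D library, and neither passed, with log2 fold changes of -0.64 (95% interval -1.38 to 0.09) for ADM and -0.26 (95% interval -0.57 to 0.04) for STC2.

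The carbonic anhydrases used as hypoxia markers in tumours were barely present. CA9 had 0.44, 0.27 and 0.54 TPM in 3D, against 0, 0 and 0.04 TPM in 2D. It was above the 2D values in every 3D library but stayed under the filter, and its exons share 643 bases with ARHGEF39 on the opposite strand, which averaged 8.13 TPM in 3D and 15.4 TPM in 2D. CA12 had 0.38, 0.43 and 0.82 TPM in 3D, against 0.12, 0.19 and 0.95 TPM in 2D. It too stayed under the filter, with replicate 3 the highest of each culture.

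The remaining genes encode receptors, a membrane protein and an oxygenase. KISS1R, the receptor for kisspeptin, had 1.26, 1.59 and 3.36 TPM in 3D, against 0.04, 0.17 and 0.55 TPM in 2D. These low levels did not overlap, and the log2 fold change was 1.25 (SE 0.32, limma adjusted p = 0.0452). KISS1R fell under the filter and was not tested without 3D replicate 3, without both libraries numbered 3 and with a filter of 5 TPM. The call was lost without 3D replicate 1 (adjusted p = 0.0835), 3D replicate 2 (adjusted p = 0.113), 2D replicate 1 (adjusted p = 0.119) or 2D replicate 2 (adjusted p = 0.137), with either other pseudocount (adjusted p = 0.0534 and 0.0632), under both other scalings (adjusted p = 0.0572 and 0.103) and without the filter (adjusted p = 0.0984). VLDLR, a lipoprotein uptake receptor, had 15.0, 20.2 and 20.1 TPM in 3D, against 7.81, 7.0 and 15.7 TPM in 2D. It overlapped through 2D replicate 3 alone and did not pass (adjusted p = 0.0864), but passed without that library (log2 fold change 1.199, adjusted p = 0.00963).

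JMJD6, an iron- and oxygen-dependent lysyl hydroxylase, had 22.8, 34.9 and 18.0 TPM in 3D, against 12.6, 14.3 and 14.0 TPM in 2D. The 2D libraries were close to each other and below every 3D library, but the spread in 3D was wide, with a coefficient of variation of 34.4%. The log2 fold change of 0.79 did not pass (limma adjusted p = 0.0613), and without 3D replicate 3 it did (adjusted p = 0.029). TMEM45A, a membrane protein found in many hypoxia signatures, had 1.11, 1.05 and 1.88 TPM in 3D, against 0.40, 0.33 and 1.52 TPM in 2D. Its groups overlapped through 2D replicate 3, with a log2 fold change of 0.47 (95% interval -0.28 to 1.22).

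Across the 31 tested genes, 2D replicate 3 differed from the other 2D libraries. It was the highest 2D library in 24 of the 31 genes (77.4%), whereas it was the highest in 36.3% of all tested genes. Its log2(TPM + 1) lay above the mean of 2D replicates 1 and 2 by a median of 0.56 over the 31 genes, against -0.02 over all tested genes. The excess was over 0.5 in 18 of the 31 genes (58.1%) and in 11.0% of all tested genes. The size differed between genes. The excess was 1.79 for BNIP3, 1.59 for ANGPTL4, 1.54 for NDRG1, 1.52 for DDIT4 and 1.14 for EGLN3, but 0.20 for ANKRD37, 0.09 for CITED2 and -0.21 for NDUFA4L2. In 3D, replicate 3 was the highest library in 17 of the 31 genes (54.8%), against 37.7% of all tested genes. The labels give no density, passage or harvest date for single libraries, and what set these libraries apart was not tested.

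**Figure D4:**
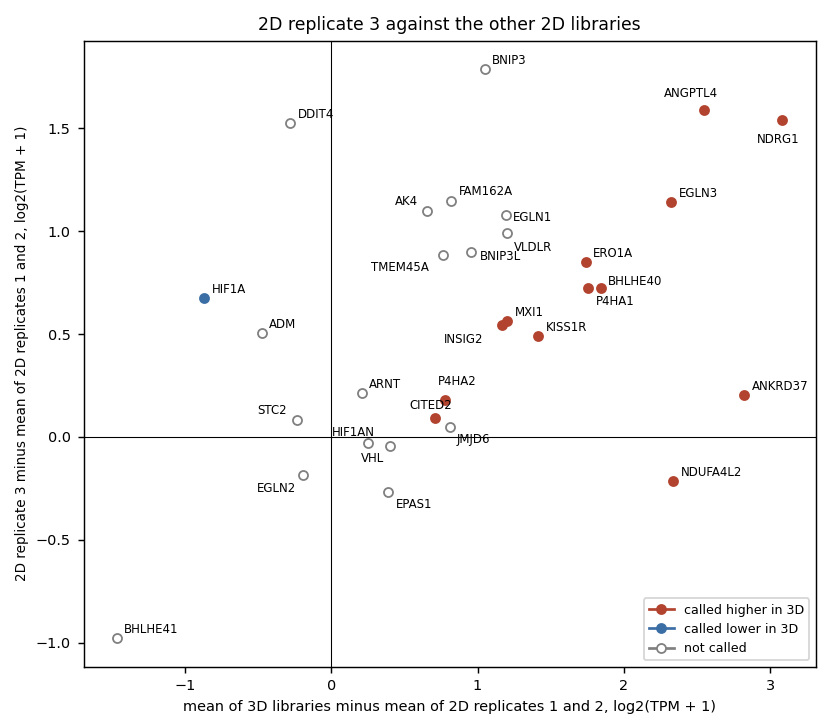
For each of the 31 tested genes, the difference in log2(TPM + 1) between the mean of the 3D libraries and the mean of 2D replicates 1 and 2 (horizontal axis), and between 2D replicate 3 and the same mean (vertical axis); both axes subtract the same libraries. BNIP3 and DDIT4 lie high on the vertical axis, at 1.79 and 1.52, while ANKRD37 and NDUFA4L2 differ between cultures with little or no excess in 2D replicate 3, at 0.20 and -0.21.

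Without 2D replicate 3, 17 of the 30 genes then tested were called higher (10.5% of all tested genes) and 2 lower (3.72%). All 14 original calls were kept, and EGLN1, BNIP3, BNIP3L, VLDLR and BHLHE41 joined them. Without both libraries numbered 3, 19 of 29 were called higher (16.3% of all tested genes) and 2 lower (8.97%). The calls were less firm against other libraries. Of the 14 called genes, 7 kept the call without 3D replicate 1, 3 without 3D replicate 2, 11 without 3D replicate 3, 7 without 2D replicate 1 and 6 without 2D replicate 2. Without 3D replicate 3, 2 calls were lost, and KISS1R fell under the filter and was not tested. The share of all tested genes called higher was 2.44% without 3D replicate 1, 2.61% without 3D replicate 2, 10.7% without 3D replicate 3, 4.84% without 2D replicate 1 and 2.82% without 2D replicate 2. The share called lower was 0.193%, 0.275%, 3.66%, 0.490% and 0.351% in the same order. ANKRD37, NDUFA4L2 and P4HA1 were the 3 genes that kept the call whichever single library was left out.

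The counts also varied with the analytical settings. With no filter, 6 hypoxia genes were called higher (2.15% of all tested genes) and 0 lower (0.254%). With a filter of 5 TPM, 11 were called higher (11.3%) and 1 lower (2.86%). A pseudocount of 0.1 gave 12 higher (10.1%) and 2 lower (2.11%), and a pseudocount of 5 gave 12 higher (9.77%) and 1 lower (2.03%). Quantile normalization gave 11 higher (5.78%) and 2 lower (3.83%), with a median log2 fold change of 0.62 for the 31 genes and -0.04 for all tested genes. Without the trend there were 12 higher (9.50%) and 1 lower (1.73%), with the robust option 12 higher (10.3%) and 2 lower (2.17%), and with the replicate number as a block 16 higher (9.83%) and 1 lower (2.63%).

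**Figure D5:**
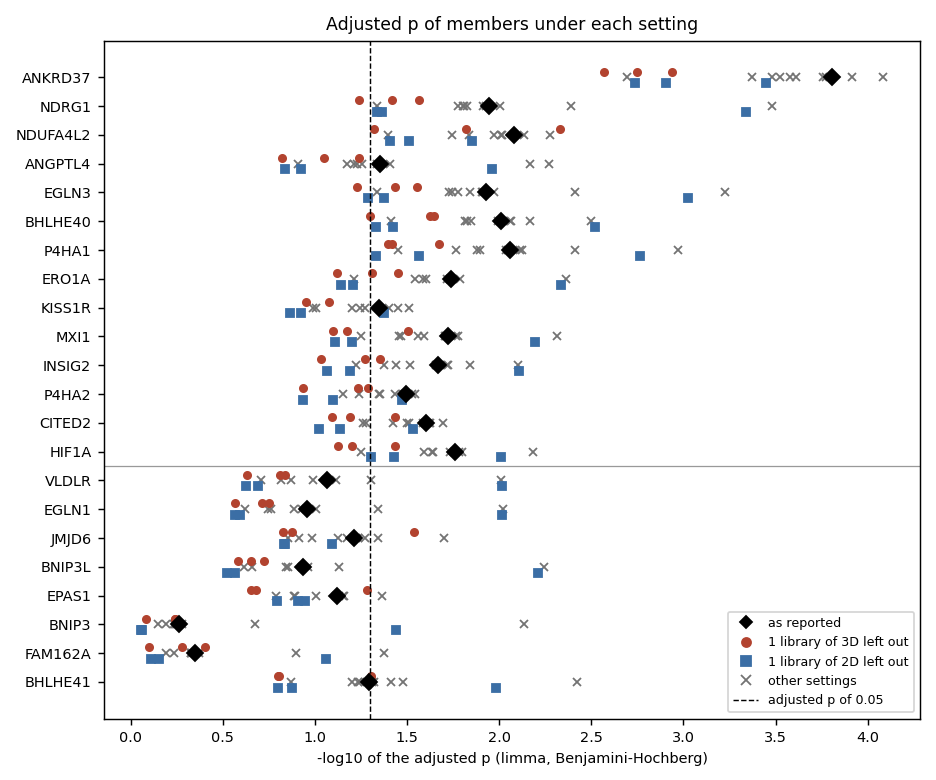
The −log10 of the limma adjusted p for the 14 called genes (above the grey line) and 8 genes called in at least 1 alternative (below it), as reported (black diamonds), with 1 3D library (red circles) or 1 2D library (blue squares) left out, and in the other settings (grey crosses); the dashed line marks 0.05. ANKRD37 stays right of the line throughout, while BNIP3L and BNIP3 cross it only where 2D replicate 3 is left out.

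Other genes of the pathway were followed in 4 lists. Of 10 further parts of the HIF machinery, 8 were tested and 1 rose, with a median log2 fold change of 0.28. For this and the other 3 lists the same figures over all tested genes were 10.2% called higher, 2.12% called lower and a median of 0.12, and 1 of 8 is near that share. That gene was SIAH1, a ubiquitin ligase that acts on prolyl hydroxylases, with 29.9, 40.6 and 38.0 TPM in 3D, against 24.6, 23.5 and 23.2 TPM in 2D (limma adjusted p = 0.0443), a call lost without any single library. The adaptors of the VHL complex were close between cultures, ELOB with 169 ± 26.4 TPM in 3D and 187 ± 15.7 TPM in 2D, and ELOC with 725 ± 77.7 TPM in 3D and 709 ± 13.6 TPM in 2D (SD, n = 3 each). HIF3A was nearly absent, with at most 0.23 TPM.

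Of 18 other dioxygenases that need oxygen, 16 were tested, of which 6 rose and none fell (10.2% and 2.12% of all tested genes), with a median log2 fold change of 0.62. The collagen lysyl hydroxylase PLOD2 had 216, 258 and 233 TPM in 3D, against 49.4, 54.8 and 109 TPM in 2D (log2 fold change 1.81, SE 0.28, limma adjusted p = 0.0104). The histone demethylase KDM3A had 49.4, 76.4 and 54.0 TPM in 3D, against 17.8, 16.7 and 33.9 TPM in 2D, and its relative KDM6B had 25.8, 27.1 and 15.2 TPM in 3D, against 11.3, 7.08 and 7.89 TPM in 2D. PLOD2 and KDM3A shared the higher value in 2D replicate 3, which KDM6B did not. All 3 lost the call without 3D replicate 2, and KDM3A and KDM6B also without 3D replicate 1 or 2D replicate 2, and KDM3A without 2D replicate 1.

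Of 22 glycolytic HIF targets, 3 rose and none fell, which is near the 10.2% called higher among all tested genes, with a median log2 fold change of 0.56 against 0.12 over all tested genes. The neuronal-type glucose transporter SLC2A3 had 8.30, 21.4 and 10.8 TPM in 3D, against 0.09, 0.09 and 0.65 TPM in 2D (log2 fold change 3.43, SE 0.35, limma adjusted p = 0.00225). HK2, an inducible hexokinase, had 44.3, 71.2 and 45.9 TPM in 3D, against 19.6, 13.8 and 20.8 TPM in 2D, and the enolase ENO2 had 129.5, 203 and 146 TPM in 3D, against 52.0, 45.2 and 76.3 TPM in 2D. ENO2 lost its call without 3D replicate 2 or 2D replicate 2. Without 2D replicate 3, 13 of the 22 were called higher (10.5% of all tested genes), and without both libraries numbered 3, 16 of the 22 (16.3% of all tested genes).

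Of 23 other HIF targets, 19 were tested, of which 5 rose and none fell (10.2% and 2.12% of all tested genes), with a median log2 fold change of 0.62. Without 2D replicate 3, 11 were called higher (10.5% of all tested genes). HILPDA, a lipid droplet protein, had 113, 192 and 116 TPM in 3D, against 17.1, 15.2 and 43.2 TPM in 2D (log2 fold change 2.54, SE 0.39, limma adjusted p = 0.0103). VEGFA, the main angiogenic growth factor, had 345, 589.9 and 365 TPM in 3D, against 75.3, 59.3 and 97.7 TPM in 2D. The fucosyltransferase FUT11 had 11.8, 22.6 and 19.2 TPM in 3D, against 1.97, 3.40 and 6.72 TPM in 2D. These 3 genes were apart between cultures in every library, where 27.3% of all tested genes lay higher in every 3D library. In each of the 3, 3D replicate 2 was the highest, as it was among 3D libraries in 39.4% of all tested genes. FUT11 lost its call without 3D replicate 2 or 2D replicate 2.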

How the data were processed

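RNA of 3 3D and 3 2D libraries was measured. Per the labels' protocols, poly(A) RNA with an RNA integrity number above 9 was made into directional libraries and sequenced as single reads of 75 nt. The authors deposited TPM per gene and library, rounded to 2 decimals; TPM keeps no depth, so depth is unknown and no counting interval is given. The build hg38 and the tools RSEM 1.3.1, STAR 2.7.0d and cutadapt 2.3 are listed in the submitters' processing notes; annotation release, strand setting and filters: not given in the sources used here. A rise of some genes lowers the TPM of others.

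Groups came from the sample titles. Genes averaging 1 TPM or more were tested on log2(TPM + 1), a scale that understates changes of low genes, with limma 3.58.1 (lmFit, eBayes with a trend) in R 4.3.3, two-sided, with no covariate and Benjamini-Hochberg adjustment over all tested genes at a threshold of 0.05. The fit was tested on simulated data with independent noise for each gene. The simulation held no shift shared by the genes of a library, so it cannot show how such a shift affects the calls. The 34 genes and all other lists were chosen with earlier results of these data known. All 34 genes are named; of the other lists, up to 3 called genes a direction with the largest log2 fold changes, or the 2 most abundant where none was called, with ELOB, ELOC and HIF3A added after their values were seen. ELOB and ELOC were matched by gene identifier, as the table uses older symbols. Antisense, readthrough and pseudogene rows were taken by symbol, and overlapping exons from GENCODE 29 (GRCh38), which holds 14874 of the 15042 tested identifiers and all 34 genes. Promoter sequences are RefSeq's, build GRCh38.p14. The alternatives were other pseudocounts, filters, scalings and eBayes options, the replicate number as a block, each library left out in turn and both libraries numbered 3 left out. Python 3.11.15 and matplotlib 3.10.9 made the plots.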

Additional observations from a re-analysis of the deposited data

How the results depend on the processing

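Over all tested genes, 1536 were called higher and 319 lower in 3D. These counts were 729 and 86 with no filter on low values, 971 and 612 under median-ratio scaling, 869 and 576 under quantile normalization, and 2464 and 1356 without both libraries numbered 3. With each library left out in turn they ranged from 367 to 1607 higher and from 29 to 563 lower. Of the hypoxia genes, 13 were called higher, but 6 with no filter and 3 to 17 with each library left out in turn. The count called lower was 1, but 0 with no filter, 2 with a pseudocount of 0.1, under median-ratio scaling, under quantile normalization, with the robust option and without both libraries numbered 3, and 0 to 2 with each library left out in turn. The sign of ARNT, which was never called, turned under median-ratio scaling (-0.0035) and quantile normalization (-0.061); the sign of no other tested gene of the 34 turned in any alternative. ANKRD37, NDUFA4L2 and P4HA1 kept their calls in every alternative that tested them. The EPAS1 to HIF1A and EGLN3 to EGLN1 differences kept their sign with each library left out and with 1 TPM added. In the fit with the replicate number as a block, 13 hypoxia genes grew to 16 called higher, with EGLN1 (adjusted p = 0.0457), VLDLR (adjusted p = 0.0497) and JMJD6 (adjusted p = 0.0458) added, and 1479 and 395 genes were called overall. The replicate numbers were not taken as pairs: deviations of same-numbered libraries correlated at 0.101, 0.0365 and 0.185, not all above 0.1, and 3D replicate 1 correlated better with 2D replicate 2, at 0.127. TPM hold no depth, so the precision of genes near 1 TPM or below, such as CA9, CA12, LOX, KISS1R and TMEM45A, is unknown.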
